A study of Mus musculus with 2 samples.

Results

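The IL-17 cytokine and receptor family was followed in cells labelled as group 3 innate lymphoid cells (ILC3s), with and without the circular RNA circKcnt2. Its members were taken by gene symbol as 6 ligand genes (Il17a, Il17f, Il17b, Il17c, Il17d and Il25) and 4 receptor genes (Il17ra, Il17rb, Il17rc and Il17re), which made 10 of the 19505 named genes on the arrays. On the circKcnt2-/- array Il17a was 137-fold and Il17f 159-fold higher than on the WT array by the measured values, and at least 47.6-fold and 39.4-fold higher if their low WT signals are read as no more than the brightest background control. None of the other 8 members differed by more than 1.46-fold in either direction.

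Gene expression was measured on 2 Affymetrix arrays, 1 from circKcnt2-/- mice and 1 from WT mice. Both groups of mice were treated with dextran sodium sulfate (DSS), which injures the gut epithelium and induces colitis. The knockout mice carried a germline CRISPR-Cas9 deletion in an intron of Kcnt2, in sequence needed for the transcript to circularize, on the C57BL/6 background, so every cell of the animal carried it. The cells had been gated as lineage-negative, with high CD90 and low CD45. In the study's general colitis protocol, young adult mice drank water with DSS and then plain water, but the labels of the arrays give no age, dose, day of sampling or number of mice. With 1 array per genotype no difference has a replicate check, no test was possible, and precision is limited throughout by having so few arrays.

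IL-17 cytokines are secreted dimers that act through pairs of IL-17 receptor chains, most of which contain the shared subunit IL-17RA. IL-17A and IL-17F signal through IL-17RA with IL-17RC, IL-25 through IL-17RA with IL-17RB, and IL-17C through IL-17RA with IL-17RE, and the adaptor Act1 carries the signal to NF-κB and MAP kinases. In the gut, ILC3s, Th17 cells and gamma delta T cells are known sources of IL-17A and IL-17F, whereas epithelial and stromal cells are the main responders and make chemokines and antimicrobial proteins in reply.

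Il17a and Il17f lie next to each other on chromosome 1, on opposite strands, with no protein-coding gene between them in RefSeq. Their promoter sequences are shown because these were the members that differed between the arrays. Each is the 250 bases before the RefSeq gene start (GRCm38.p6), written 5′ to 3′ along the gene's own strand, chr1:20730655-20730904 on the plus strand for Il17a and chr1:20784271-20784520 on the minus strand for Il17f. Capitals mark every match to 4 motifs that were searched on both strands. The motif for AP-1 factors was TGANTCA, called the AP-1 core here, in which N admits any base. For ROR nuclear receptors, factors that act on Il17a and Il17f in Th17 cells, it was the 6 letters AGGTCA. STAT factors were searched as TTCNNNGAA, and the TATA box as TATAAA.
Il17a: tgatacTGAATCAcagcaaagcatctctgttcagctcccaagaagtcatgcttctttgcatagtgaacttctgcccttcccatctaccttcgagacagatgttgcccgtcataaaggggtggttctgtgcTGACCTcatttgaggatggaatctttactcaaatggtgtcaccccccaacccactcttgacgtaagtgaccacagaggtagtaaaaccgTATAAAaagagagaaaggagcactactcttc
Il17f: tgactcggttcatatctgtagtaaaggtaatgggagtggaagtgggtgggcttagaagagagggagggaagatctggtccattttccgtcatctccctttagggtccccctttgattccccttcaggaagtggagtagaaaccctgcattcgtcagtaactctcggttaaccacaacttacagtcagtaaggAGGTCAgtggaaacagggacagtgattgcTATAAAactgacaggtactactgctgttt
The Il17a window held an AP-1 core at -244 to -238 from the gene start, a ROR site on the other strand at -120 to -115, where the printed strand reads TGACCT, and a TATA box at -31 to -26. The Il17f window held a ROR site at -58 to -53 and a TATA box at -29 to -24, and no match to the AP-1 core. No marked match overlapped another.

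Windows were at hand for 7 of the 10 members, without Il17b, Il25 and Il17ra. Il17a and Il17f were the members with a ROR site (2 of 7, against 14.0% of all 32851 windows of this length), and also those with a TATA box close to the gene start. Il17c held TATAAA too, but at -248 to -243, so that 3 of 7 windows had the letters, against 12.4% of all windows. An AP-1 core was present for Il17a and for Il17rb (at -104 to -98), that is in 2 of 7 windows against 6.75% of all. The STAT site was in 0 of 7 windows, against 7.02% of all, and Il17d, Il17rc and Il17re held no match to any of the 4 motifs. The Il17a and Il17f windows contained 46.0% and 47.2% G or C, and those of the other 5 members between 52.4% and 72.0%. These matches are descriptions of letters in a window, and no factor binding was measured here.

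**Figure D1:**
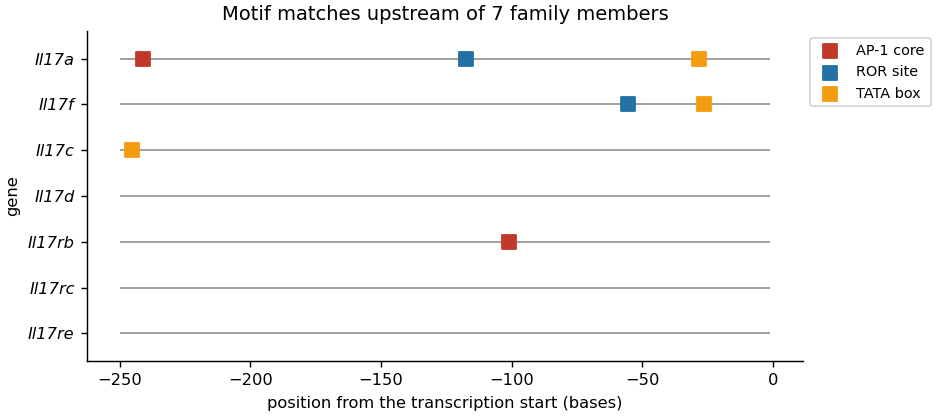
Positions of motif matches in the 250 bases upstream of the gene start for the 7 members with a promoter window, with distance from the start in bases on the horizontal axis and 1 line per gene. Il17a and Il17f have a TATA box near the start, at -31 to -26 and -29 to -24, and each has a ROR site, whereas Il17d, Il17rc and Il17re have no match.

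All levels below are log2 RMA values, in which 1 unit is a 2-fold difference, and all differences are circKcnt2-/- minus WT. A gene was taken as above background on an array if it reached 2.73, a level that 95% of 1412 receptor genes for odours and pheromones did not exceed on either array, and 12504 named genes did so on at least 1 array. Control probe sets matched for GC content reached up to 5.91, so a level between 2.73 and 5.91 may be background for a probe set rich in G and C. Each member was read by a single probe set. All 10 members were above 2.73 on both arrays, 7 were above a stricter level of 3.62 on at least 1 array, and 4 were above 5.91 on at least 1 array, namely Il17a and Il17f on the circKcnt2-/- array and Il17ra and Il17rb on both.

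The arrays did not bear out the labelled cell type, since all T cell and thymocyte markers measured were read above most ILC3 markers. Of 9 ILC3 markers measured, 4 were above background on both arrays (Il7r, Id2, Kit and Cxcr6), while Il23r, Il1r1, Ncr1 and Ccr6 were below it on both. Rora, averaged over 3 probe sets, was at 2.68 on the circKcnt2-/- array, below background, and at 2.98 on the WT array. A pair of its probe sets was above background on both arrays, as given below. The summed log2 level of the ILC3 markers was 34.4 on the circKcnt2-/- array and 34.3 on the WT array. T cell and thymocyte markers, which a lineage-negative gate should remove, were above background in 10 of 10 cases on both arrays, with sums of 86.0 and 83.7 on the circKcnt2-/- and WT arrays. Cd3e, a T cell receptor component, was at 10.16 on the circKcnt2-/- array and 9.98 on the WT array. Ptcra, the pre-T cell receptor chain of thymocytes, was at 6.53 and 6.17 in the same order. Cd4 was at 9.28 on the circKcnt2-/- array and 9.10 on the WT array, Cd8a at 9.71 and 9.65, and Cd8b1 at 10.00 and 9.96. Rag2 was at 6.80 and 6.17 in the same order. Of 6 gamma delta T cell markers 4 were above background on both arrays, with sums of 20.6 (circKcnt2-/-) and 20.8 (WT). Of 4 B and plasma cell markers 3 were above background on both arrays, with sums of 16.1 (circKcnt2-/-) and 16.9 (WT). These did not share a direction. Jchain, the antibody joining chain of plasma cells, was at 4.30 on the circKcnt2-/- array and 6.72 on the WT array. Cd79a was at 4.47 and 3.90 in the same order, and Cd79b at 4.87 and 3.91, both higher on the circKcnt2-/- array. All 3 measured Y-linked genes were below background on the circKcnt2-/- array and above it on the WT array (Uty at 1.24 against 5.26), and the sum was 5.21 against 15.0, so sex and genotype cannot be told apart. All 7 measured cell cycle genes were higher on the circKcnt2-/- array (median difference 0.83, sums 48.9 and 43.5), as were 7050 of the 12504 genes above background. Of 7 immediate early genes 3 were at least 2-fold lower there (median -0.98, sums 42.1 and 47.7), against 0.512% of all genes above background. The part of any of these in the values below was not tested.

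The ligands IL-17A and IL-17F, which recruit neutrophils and act on barrier cells as homodimers or as a heterodimer, were the members that differed most. Il17a (probe set TC0100000127.mm.2) was at 11.48 on the circKcnt2-/- array and at 4.38 on the WT array, a difference of 7.10. Il17f (TC0100002032.mm.2, chromosome 1) was at 11.21 on the circKcnt2-/- array and at 3.90 on the WT array, a difference of 7.31. Both genes were high on the circKcnt2-/- array and low on the WT array, where they lay above the background level but 1.53 and 2.01 below the highest GC-matched control.

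On the linear scale Il17a measured 2864 units of intensity on the circKcnt2-/- array against 20.9 on the WT array, and Il17f 2373 against 14.9. If the WT signal is read as no more than the highest GC-matched control, Il17a was at least 47.6-fold and Il17f at least 39.4-fold higher on the circKcnt2-/- array. With 32 added to each linear value before the logarithm, the folds were 54.8 for Il17a and 51.3 for Il17f, which turns their order round. On the circKcnt2-/- array Il17a was 0.21 and Il17f 0.48 below the highest value on that array (11.69), and saturation was not tested. The size of these folds therefore rests on how a WT signal near background is read, whereas the direction was the same in each reading. In a bulk sample, more cells of a producing type and more RNA per cell cannot be told apart.

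Il17f and Il17a ranked first and second in the signed difference among the 12504 genes above background. For genes of like mean level, the middle 95% of differences ran from -0.22 to 0.58 around Il17a and from -0.28 to 0.66 around Il17f. Those ranges are for genes of like mean over both arrays, not of like WT level. The Il17f difference exceeded that of Il17a by 0.21. With 1 array per genotype, whether these genes differed in size was not tested. The next member in order was 6.56 below Il17a, and the next gene of any kind, Batf, was 2.09 below it.

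**Figure D2:**
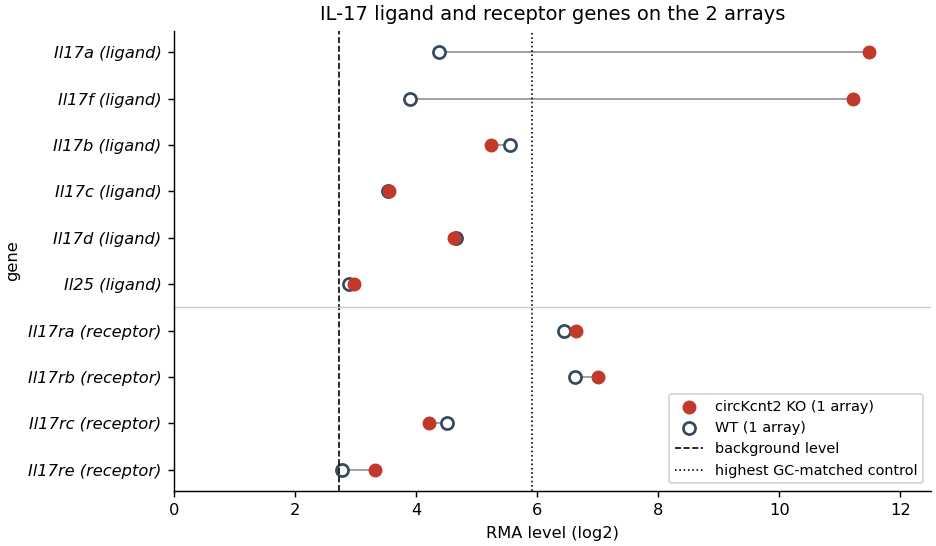
Log2 RMA level of each member on the circKcnt2-/- array and on the WT array (1 array each, so no error bars), with ligands and receptors grouped and lines at the background level of 2.73 (dashed) and at the highest GC-matched control, 5.91 (dotted). Il17a and Il17f stand at 11.48 and 11.21 on the circKcnt2-/- array against 4.38 and 3.90 on the WT array, and the 2 points of each of the other 8 members lie within 0.54 of each other.

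The other 4 ligands did not share this pattern. Il17b (TC1800000636.mm.2), which encodes a ligand of IL-17RB, was at 5.24 on the circKcnt2-/- array and 5.55 on the WT array (difference -0.30, 0.810-fold). Il17c (TC0800001487.mm.2, chromosome 8), which epithelial cells are known to make, was at 3.56 and 3.54 (circKcnt2-/- and WT, difference 0.02). Neither lay outside the middle 95% of genes of like level, which ran from -0.54 to 0.80 around Il17b and from -0.85 to 0.88 around Il17c.

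Il17d (TC1400000818.mm.2, chromosome 14), a distant relative within the family, was at 4.62 on the circKcnt2-/- array and 4.65 on the WT array, a difference of -0.03. Il25 (TC1400000762.mm.2, chromosome 14), also called IL-17E, is a tuft cell product that activates group 2 innate lymphoid cells, and it was at 2.98 on the circKcnt2-/- array and 2.90 on the WT array, a difference of 0.08. These differences too lay inside the like-level ranges of -0.58 to 0.87 and -0.86 to 0.73. Of 6 tuft cell markers 2 were above background on both arrays, and Il25 itself was within 0.25 of the background level. The 4 ligands other than Il17a and Il17f were read between 2.90 and 5.55, below the highest GC-matched control on either array.

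Among the receptors, the shared subunit and the IL-25 receptor chain gave the clearest signal. Il17ra (TC0600001347.mm.2, chromosome 6), the chain common to most family receptors, was at 6.64 on the circKcnt2-/- array and 6.45 on the WT array, a difference of 0.18 or 1.14-fold. Il17rb (TC1400001655.mm.2, chromosome 14), which pairs with IL-17RA to bind IL-25, was at 7.01 on the circKcnt2-/- array and 6.62 on the WT array, a difference of 0.39 or 1.31-fold. Both were above the highest GC-matched control on each array, and both differences lay within the like-level ranges of -0.41 to 0.61 and -0.33 to 0.68.

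Il17rc and Il17re, which are adjacent on chromosome 6 on the same strand, were read at lower levels. Il17rc (TC0600001252.mm.2), the partner chain for IL-17A and IL-17F, was at 4.21 on the circKcnt2-/- array and 4.51 on the WT array, a difference of -0.31. Il17re (TC0600001251.mm.2), the partner chain for IL-17C, was at 3.32 on the circKcnt2-/- array and 2.77 on the WT array, a difference of 0.54 or 1.46-fold. That of Il17re was the largest among the 8 members other than Il17a and Il17f, but its WT level was only 0.04 above background. Neither receptor lay outside its like-level range, which was -0.66 to 0.95 for Il17rc and -0.82 to 0.88 for Il17re. The adjacent pair thus had differences of opposite sign, both inside the spread of genes at their level.

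The median difference was 0.05 over the 6 ligands and 0.29 over the 4 receptors, against 0.06 over all 12504 genes above background. The ligand differences ran from -0.30 to 7.31, and those of the receptors from -0.31 to 0.54. The ligand median depended on which ligands were kept. It was -0.01 without Il17a and Il17f, but 3.53 with the stricter background level of 3.62 and 7.21 with the highest GC-matched control as background, where the receptor medians were 0.18 and 0.29. In sign, 4 of 6 ligands and 3 of 4 receptors were higher on the circKcnt2-/- array, as were 7050 of the 12504 genes above background.

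At 2-fold, 2 of 10 members were higher on the circKcnt2-/- array, where 1.11% of all genes above background were, and 0 were lower, where 0.512% of all genes were. The same 2 members, Il17a and Il17f, were past 1.5-fold (7.66% of all genes higher, 5.21% lower) and past 3-fold (0.064% higher, 0.032% lower), with 0 members lower at either threshold. No receptor reached 1.5-fold as measured, but Il17re did with quantile normalization (1.52-fold) and with the loess correction (1.62-fold).

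**Figure D3:**
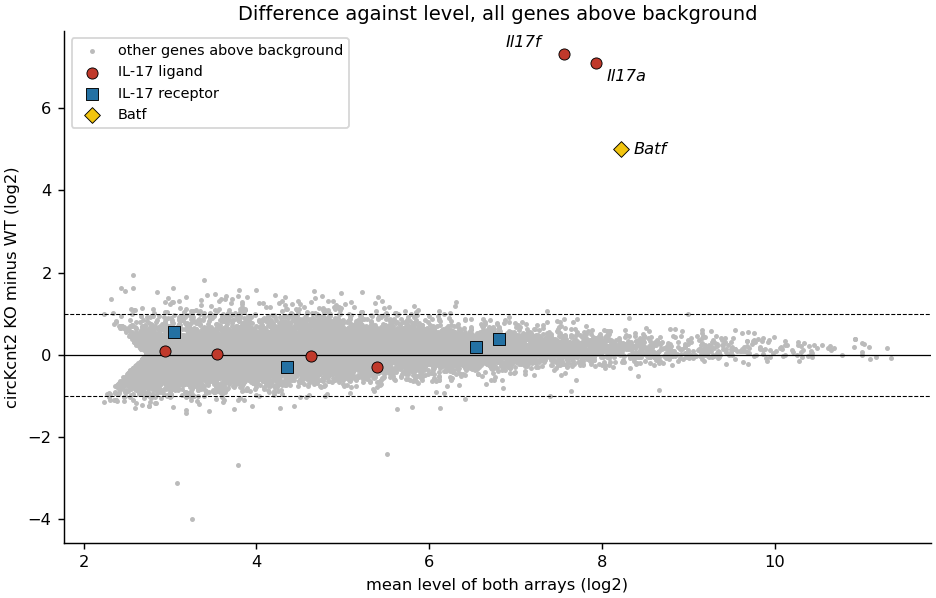
Difference (circKcnt2-/- minus WT, log2) against mean log2 level for the 12504 genes above background, with the members and Batf marked and dashed lines at a 2-fold difference. Il17a at 7.10 and Il17f at 7.31 stand far above the cloud of genes, Batf at 5.01 is the nearest gene outside the family, and the other 8 members lie between the dashed lines.

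The 3 genes outside the family with the nearest differences were Batf, Osbpl1a and Gins1. Batf, an AP-1 family factor required for differentiation of Th17 cells, was at 10.73 on the circKcnt2-/- array and 5.71 on the WT array, a difference of 5.01. Osbpl1a, which encodes an oxysterol-binding protein, was at 3.55 on the circKcnt2-/- array and at 1.60 on the WT array, below background there, and so at least 1.76-fold higher. Gins1, which encodes a subunit of the GINS complex of DNA replication, was at 4.30 and 2.48 in the same order, at least 2.97-fold higher, with its WT value also below background. The next highest measured difference was 3.07 below that of Batf, and since it was that of Osbpl1a, this gap includes a WT value below background. Among lower genes, the Y-linked Uty had a measured difference of -4.01, also with 1 value below background.

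The nearest chromosomal neighbours of Il17a and Il17f were not past 2-fold. Pkhd1, the nearest protein-coding gene on the Il17a side, which encodes fibrocystin, was at 1.26 on the circKcnt2-/- array and 1.18 on the WT array, below background on both. Mcm3, the nearest on the Il17f side, which encodes a subunit of the replicative helicase, was at 5.50 on the circKcnt2-/- array and 5.14 on the WT array, a difference of 0.36. The measured difference past 2-fold in this stretch was thus limited to Il17a and Il17f among the neighbours read here.

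Genes that act around the family were followed in 4 lists. The first held the signalling apparatus downstream of the receptors, with 24 genes measured and 23 above background. Of these 0 were past 2-fold in either direction, and the median difference was 0.11, against 0.06 over all genes, with its sign turned by quantile normalization (-0.0022) and loess (-0.014). Traf3ip2, which encodes the adaptor Act1, was at 4.76 on the circKcnt2-/- array and 4.58 on the WT array. Il17rd, a receptor-like member that was not among the 10, was at 1.30 and 1.33 (circKcnt2-/- and WT), below background on both. At 1.5-fold, 1 of 23 genes was higher, where 7.66% of all genes above background were. It was Ikbke, an IκB kinase family member, at 6.10 on the circKcnt2-/- array against 5.31 on the WT array. The genes lower at 1.5-fold were 3 of 23, where 5.21% of all genes were. These were Cebpb and Cebpd, transcription factors induced by IL-17 in target cells, with differences of -0.75 and -0.76, and Ikbkg, which encodes the NEMO subunit of the IκB kinase complex, with a difference of -0.72. These 4 genes, chosen after their values were seen, lay within 0.79 of no change.

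The second list held genes that epithelium and stroma switch on in response to IL-17. Of 18 measured, 13 were below background on both arrays, among them Cxcl2, Reg3g, Defb4 and Il6. Of the 5 above background on at least 1 array, 1 was past 2-fold higher as measured, against 1.11% of all genes above background. This gene was Lcn2, which encodes the iron-scavenging protein lipocalin-2. It was at 3.62 on the circKcnt2-/- array and at 2.08, below background, on the WT array, so that the bound was only at least 1.85-fold higher, and with values raised to background 0 genes of the list were past 2-fold. The other 4, the chemokine genes Cxcl1, Cxcl3 and Ccl20 and the granulocyte growth factor gene Csf3, had differences between -0.48 and -0.32. Of 6 epithelial markers 3 were above background on both arrays, with sums of 18.8 on the circKcnt2-/- array and 19.4 on the WT array.

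The third list held factors that act on Il17a and Il17f transcription and receptors for the cytokines that induce them. Of 28 genes measured and 26 above background, 1 was at least 2-fold higher (Batf) and 2 at least 2-fold lower. Over all genes above background these shares were 1.11% and 0.512%. The median difference of the list was -0.07. Jun and Junb, AP-1 subunits that can dimerize with Batf, were the lower genes, and neither was past 2-fold with 32 added before the logarithm. Jun was at 5.48 on the circKcnt2-/- array and 6.77 on the WT array, and Junb at 5.88 and 6.95 in the same order. Both also belong to the immediate early genes, which were lower as a list. Jun and Junb are themselves counted among the lower genes of that list, so it is not separate from their values. Irf4, a partner of Batf at composite DNA sites, was at 3.24 on the circKcnt2-/- array and 3.66 on the WT array, and Stat3, which transmits IL-6 and IL-23 signals, at 6.28 and 6.41.

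Receptors for the inducing cytokines IL-23 and IL-1 were not read above background. Il23r was at 2.16 on the circKcnt2-/- array and 1.91 on the WT array, and Il1r1 at 2.05 and 2.07, all below background. Rora, a ROR family factor gene, was read by 3 probe sets. The pair above background on both arrays was lower on the circKcnt2-/- array, with 3.14 against 3.94 on the WT array (difference -0.81) and 2.89 against 3.50 (difference -0.61). The other probe set was at 2.03 on the circKcnt2-/- array and 1.49 on the WT array, below background on both.

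The fourth list held other cytokines of lymphocytes, and none of those above background differed by as much as 2-fold. Of 14 measured, 6 were above background on at least 1 array, 0 were past 2-fold, and the median difference was -0.13. Il22, a further product of ILC3s, was at 2.93 on the circKcnt2-/- array and 3.35 on the WT array, a difference of -0.42. Tnf, which acts together with IL-17A on target cells, was at 4.67 on the circKcnt2-/- array and 3.76 on the WT array, a difference of 0.91. Tnf was the gene of this list past 1.5-fold, where 7.66% of all genes above background were higher. Il13, a type 2 cytokine made by cells that carry IL-17RB, was at 4.25 and 4.37 (circKcnt2-/- and WT), and Ltb, a lymphotoxin gene, at 7.27 and 7.41. Values for Il22, Il13, Tnf and Ltb are given as examples chosen after they were seen.

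**Figure D4:**
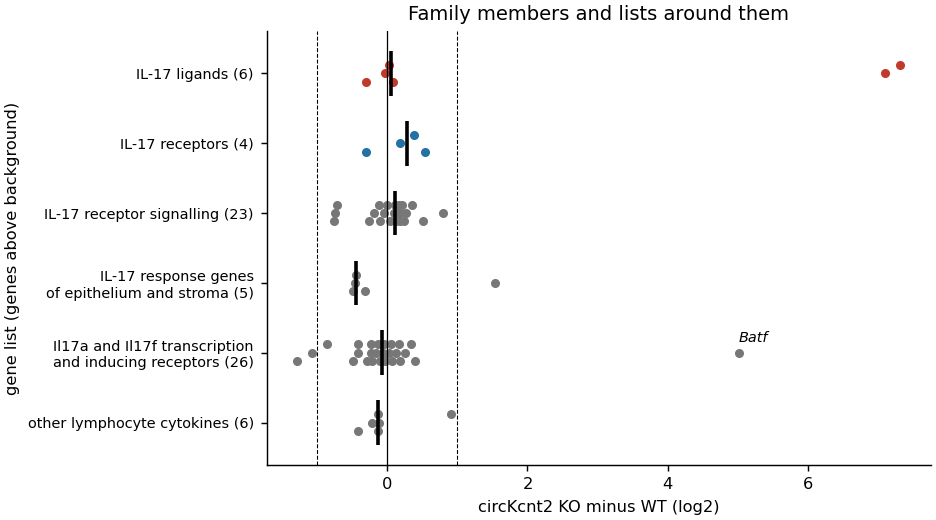
Differences (circKcnt2-/- minus WT, log2) of the ligands, the receptors and the genes of the 4 lists that were above background, 1 point per gene a bar at the median of each list and dashed lines at a 2-fold difference. Il17a, Il17f and Batf stand at 5.01 or above, and the medians of the 4 lists lie between -0.44 and 0.11.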

How the data were processed

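The authors deposited log2 values for each probe set. Per the submitters' processing notes these came from RMA in Affymetrix Power Tools, which subtracts background, equalizes the distributions of the arrays and summarizes probes, with versions and build not given in the sources used here. Such scaling would mask a change common to most genes. The submitters name a Mouse Gene 2.0 protocol, but the probe sets are of another Affymetrix design, which leaves the model of the array open. Of 29129 probe sets, 19572 had 1 gene symbol, 0 had several, and values of the 55 genes with several probe sets were averaged. All 10 members matched RefSeq symbols.

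Differences were taken between the 2 arrays with Python 3.11.15 and pandas 2.3.3. Like-level ranges are the middle 95% of differences in 20 bins of mean level. A gene below background on 1 array only was given as a bound against 2.73. Genes past 1.5-fold, 2-fold and 3-fold were counted among those above background. No p-value is given.

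The members and lists were chosen with earlier results of these data known. Of 158 companion and marker genes, 145 were measured, and the rest are not analysed here. The text names all members, up to 4 genes of each list past 2-fold, a fixed set of regulators, the 3 nearest genes by difference, the neighbours of Il17a and Il17f, and marker genes. Genes named outside this rule, such as those past 1.5-fold and examples from the lists, were chosen after their values were seen. Promoter windows were those of RefSeq, matched by symbol, and proteins were not analysed here. Alternatives were another floor, loess (span 0.3), quantile or median scaling, an addition of 32, values raised to background and other thresholds. Others were the probe set with the highest mean, the mean in place of the median, and the ligands without Il17a and Il17f. Like-level ranges were also taken in 5 bins. The procedure was tested on simulated data.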

Additional observations from a re-analysis of the deposited data

How the results depend on the processing

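No paired analysis was possible because each genotype had 1 array. Of 213 values under alternative settings, 196 lay within the tolerance, 17 moved beyond it, and no difference past 2-fold changed sign. Some of the 196 could not move, so their number does not measure stability. Each member was above background on both arrays and had 1 probe set. Raising values to background, or taking the probe set with the highest mean, therefore left every member difference as it was. The tolerance was 1 robust SD of like-level genes for members, 0.37 for medians and 1.5 times for counts. Il17a and Il17f kept their direction in every setting, with differences between 5.78 and 7.10 for Il17a and between 5.68 and 7.32 for Il17f. The lower ends, 5.78 and 5.68, came with 32 added before the logarithm. Il17c, at -0.04 to 0.09, was the member whose sign changed among settings, and small medians changed sign too, that of the ligands with median subtraction (-0.0080) and that of receptor signalling with quantile normalization (-0.0022) and loess (-0.014). Il17re ran from 0.11 to 0.69, the upper end being past 1.5-fold.

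The ligand median was 3.53 with the background level at percentile 99 and 7.21 with it at the highest GC-matched control, since these left fewer ligands, and the ligand mean was 2.36. These floors were added for the medians, and the GC-matched floor and 3-fold threshold for the lists, after seeing the data. Among the IL-17 response genes, the count past the threshold on the circKcnt2-/- side was 0 with an addition of 32, with values raised to background, with either stricter floor and at 3-fold, and their median was -0.038 with no floor. The lower count of the transcription list was 0 with an addition of 32 and at 3-fold. At 1.5-fold, receptor signalling had 1 higher and 3 lower genes, and the other cytokines 1 higher. Signal over background limits the values of the members below the highest GC-matched control, Il17a and Il17f on the WT array included, and 1 array per genotype limits all.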

Other observations

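Around all 10 members, 31 measured genes lay within 2 protein-coding genes of a member in RefSeq order. None was past 2-fold, and their differences ran from -0.87 to 0.39. Paqr8, which encodes a membrane progesterone receptor and lies 2 genes from Il17f, was at 2.30 on the circKcnt2-/- array, below background, and at 3.07 on the WT array. Arhgef37, with the lowest difference of the 31, was at 1.58 on the circKcnt2-/- array and 2.45 on the WT array, below background on both.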
